A study of Arabidopsis thaliana with 12 samples.

Results

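The plastid carries its own small genome, and 69 of the genes on it could be read on Affymetrix ATH1 arrays, which measure transcripts with probe sets of short oligonucleotides. They were taken as every probe set matched to 1 gene whose chromosome is the plastid in the gene table, and each gene had 1 such probe set, so that no choice between probe sets was needed. The gene table lists 78 plastid protein-coding symbols, 9 of which have no named probe set and were not analysed here, and the whole array holds 22746 probe sets other than controls, with 13355 genes matched to a probe set of 1 gene. By complex, the members are 5 genes of photosystem I, 15 of photosystem II, 6 of the cytochrome b6f complex, 6 of the ATP synthase, 10 of the NDH complex, rbcL for Rubisco, 15 ribosomal proteins (8 of the small and 7 of the large subunit), 4 subunits of RNA polymerase, the protease gene clpP and 6 others.

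The arrays came from Arabidopsis thaliana of the accession Col-0, grown in 16 h of light and 8 h of dark, and fall into 4 groups of 3. Whole-embryo cells are cellular RNA of embryos of 8 to 32 cells that were squeezed out of ovules and washed, with RNA taken by a PicoPure kit. Suspensor nuclei, proembryo nuclei and whole-embryo nuclei came from embryos of 2 to 16 cells in ovules fixed with paraformaldehyde. Nuclei were sorted by flow cytometry from marker lines, whose markers the labels do not name, and RNA was released with proteinase K. Stage, fixation and extraction differ together between cells and nuclei and cannot be told apart. In such samples fewer plastids, fewer cells of a type and less RNA per cell cannot be told apart either. The titles call the replicates biological without naming separate plants, harvests or sorts, so the p-values rest on a spread between samples that may be technical.

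Plastids descend from a bacterial ancestor, and their genes are transcribed inside the organelle, mostly as long transcripts that cover several neighbouring genes. Transcription is shared between a bacterial-type RNA polymerase, whose core subunits are encoded by rpoA, rpoB, rpoC1 and rpoC2, and phage-type polymerases encoded in the nucleus. Photosystem genes depend mainly on the bacterial type, whereas accD and the rpoB gene cluster are read by the phage type. Plastid transcripts carry no long poly(A) tail as nuclear messengers do, and most of the complexes named here also hold subunits that are encoded in the nucleus and imported.

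Levels are given as log2(intensity + 16), and a difference is a difference between group means on that scale, which understates changes of dim genes. Probe sets respond differently to equal amounts of RNA, so levels are compared between arrays for the same gene and not between genes. On each array, between 24 and 44 of the 69 genes lay above that array's median over all probe sets: 34, 44 and 33 in the 3 arrays of cells, 36, 27 and 31 in suspensor nuclei, 25, 27 and 30 in proembryo nuclei, and 32, 24 and 28 in whole-embryo nuclei. Some plastid genes were thus read above that median on arrays of sorted nuclei as well as of cells. By definition as many of all probe sets lie above that median as below it, so these counts alone do not show detection. Among nuclei, suspensor replicate 1 and proembryo replicate 2 stood apart from the other arrays of their group for these genes, as given below with the comparisons. Above the median on all 12 arrays were 13 genes, and 13 others lay below it on every array, among them psbN, atpI, psaC, petG and psbH. Those 5 had the lowest means over 12 arrays, and psaC, an iron-sulfur subunit of photosystem I, passed 5 on 1 array, whole-embryo cells replicate 3, at 6.24.

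**Figure D1:**
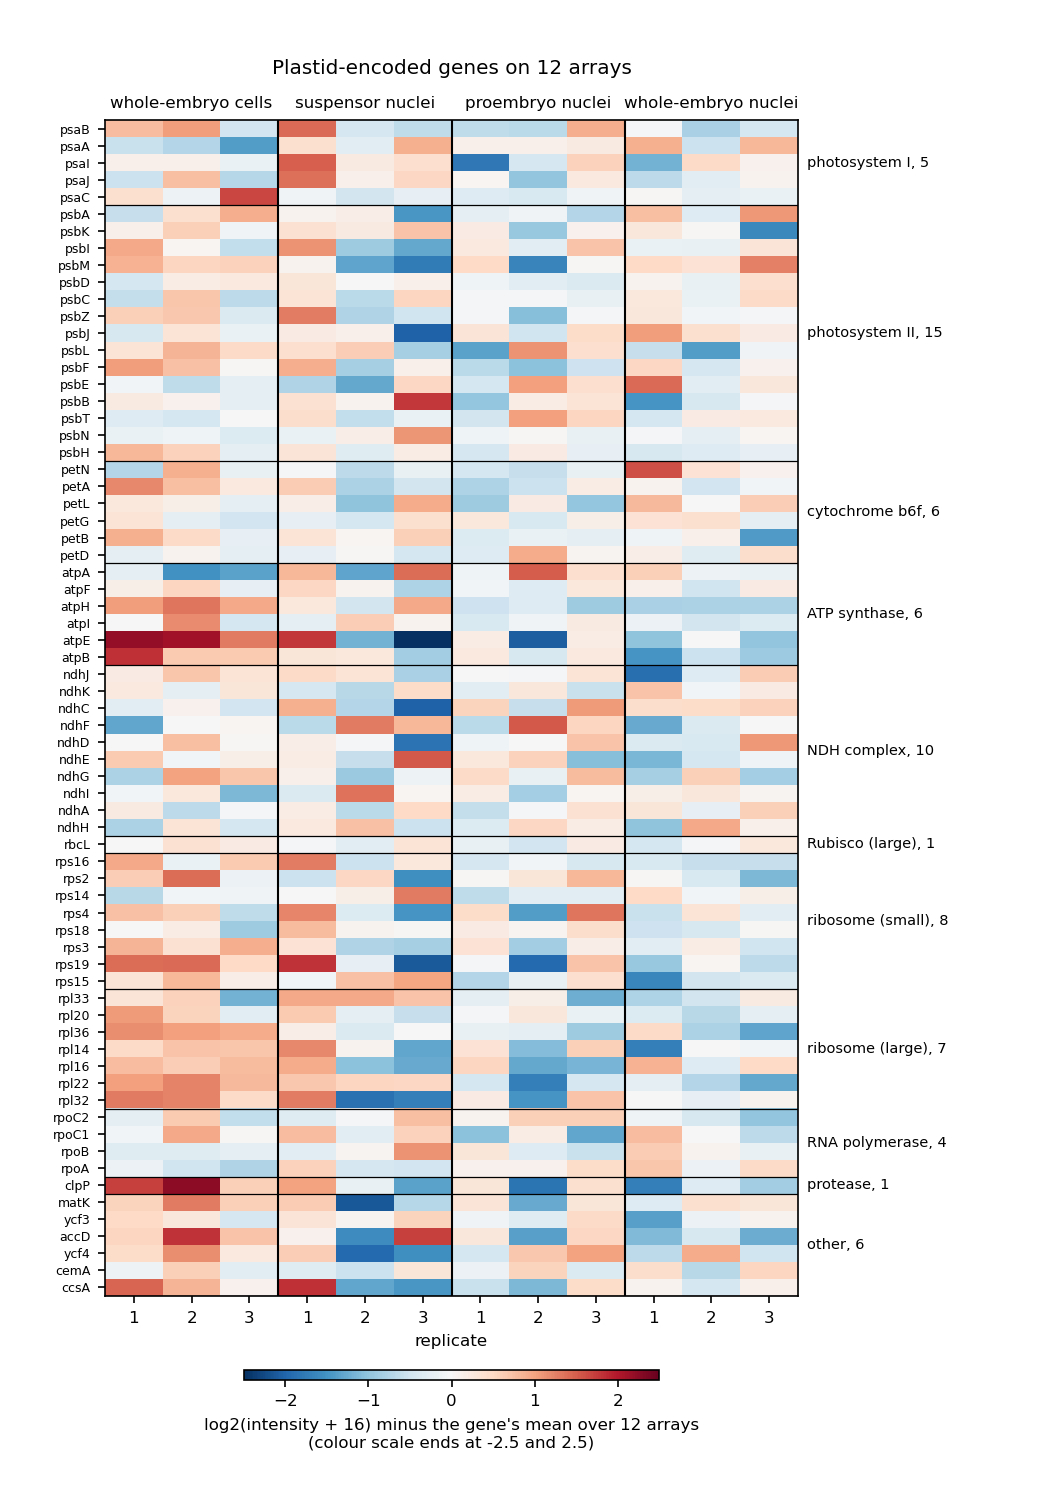
Each row is a plastid gene, each column an array, and the colour is log2(intensity + 16) minus that gene's mean over 12 arrays; genes are grouped by complex, with the number of genes beside each name. The strongest colours lie in atpE, clpP and rps19, whose ranges over the 12 arrays are 4.69, 4.05 and 3.91.

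Cellular RNA was first set against nuclear RNA of the whole embryo. A group of plastid genes stood higher in whole-embryo cells than in whole-embryo nuclei: the ATP synthase gene atpE, the protease gene clpP and the ribosomal protein genes rps19, rpl22 and rpl36. These 5 rose past a limma adjusted p of 0.05, taken over all probe sets kept, and 0 members fell past it, with 15 past an unadjusted p of 0.05, 13 of them higher and 2 lower. A probe set was kept where it lay above its array's median on at least 3 of the 6 arrays, which held for 33 members. Of these, rpl22, one of the 5 called, and rps15 were kept through the cell arrays alone. Without the filter limma called 4 of the 69 genes higher: atpE, clpP, rps19 and the dim gene atpH. There 0.822% of all probe sets were called higher, and rpl22 and rpl36 missed the threshold. Over all 11867 probe sets kept, 2.71% were called higher and 4.05% lower, and 23.9% had an unadjusted p under 0.05. Counted without that filter over all 69 genes, 46 stood above 0 and their median was 0.38, where 45.1% of all probe sets stood above 0 and the median was -0.06. Arrays of the groups did not overlap for 17 genes with cells higher, against 9.15% of all probe sets, and for 5 with cells lower, against 12.8%. With 3 arrays a group the number of arrays limits the precision of every value.

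atpE encodes the epsilon subunit of the plastid ATP synthase, the part that regulates the enzyme's rotation. It read 12.23, 12.14 and 11.34 in the cell arrays, against 9.04, 10.04 and 9.05 in whole-embryo nuclei. The lowest cell array thus lay above the highest array of nuclei, and the groups did not overlap. The difference was 2.53 log2 units, or 5.77-fold (SE 0.346, n = 3 and 3, limma adjusted p = 0.00245), and it stayed past the threshold when any 1 of the 6 arrays was left out, with an adjusted p between 0.000222 and 0.0489 over all 14 alternatives.

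clpP encodes the catalytic subunit of the plastid Clp protease, an ATP-driven enzyme of protein turnover. Its levels were 10.70, 11.22 and 9.59 in cells, against 7.28, 8.67 and 8.12 in whole-embryo nuclei, again with no overlap. The difference was 2.48 log2 units, or 5.58-fold (SE 0.437, n = 3 and 3, limma adjusted p = 0.00751). It passed the threshold in 12 of 14 alternatives and missed it without whole-embryo nuclei replicate 1 and without replicate 3.

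Ribosomal protein genes made up the other 3 calls. rps19, of the small subunit, read 9.69, 9.71 and 8.78 in cells, against 7.34, 8.33 and 7.64 in whole-embryo nuclei (difference 1.62, SE 0.341, n = 3 and 3, limma adjusted p = 0.0184). rpl22, of the large subunit, read 7.06, 7.27 and 6.85 in cells, against 5.80, 5.31 and 4.75 in whole-embryo nuclei (difference 1.77, SE 0.444, limma adjusted p = 0.0373). rpl36 read 8.46, 8.33 and 8.24 in cells, against 7.78, 6.51 and 5.98 in whole-embryo nuclei (difference 1.58, SE 0.398, limma adjusted p = 0.0377). In all 3 genes the groups did not overlap. rpl22 lay above the array median in the cells alone, so it was tested only because of the group in which it is high, and without the filter its adjusted p was 0.0625. Without the filter rpl36 stood at an adjusted p of 0.0894, while rps19, atpE and clpP passed, where 0.822% of all probe sets were called higher. Over the alternatives rps19 passed in 10 of 14, with a limma adjusted p of up to 0.192. It missed the threshold with all 12 arrays in the fit, among others. rpl36 passed in 8 of 14 alternatives and rpl22 in 5 of 11.

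The calls depended on single arrays. Without whole-embryo cells replicate 1, atpE, clpP, rps19 and rpl36 were called (4.29% of all probe sets called higher), and without replicate 2 atpE and clpP (0.485%). Leaving out whole-embryo nuclei replicate 1 left atpE and rpl36 (0.928%), leaving out replicate 2 left atpE, clpP and rps19 (1.22%), and leaving out replicate 3 left atpE (1.03%). Whole-embryo cells replicate 3 was the lowest of the cell arrays for 26 of the 34 members kept among nuclei, against 38.7% of all probe sets kept there. Without it 9 members were called higher, where 3% of all probe sets were, namely atpE, clpP, rps19 and rpl36 with psaB, petA, rpl20, rpl32 and ccsA.

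**Figure D2:**
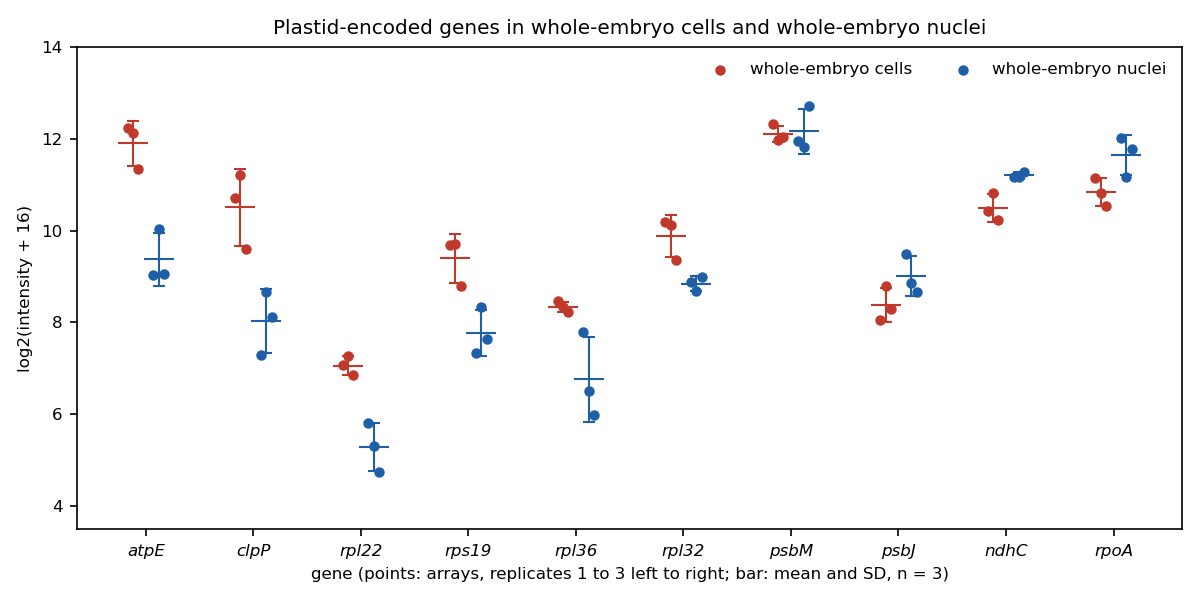
Points are single arrays of whole-embryo cells (red) and whole-embryo nuclei (blue) on the log2(intensity + 16) scale, and bars give the mean and SD of 3 arrays. atpE, clpP, rpl22, rps19, rpl36 and rpl32 have every cell array above every array of nuclei, while ndhC and rpoA have every cell array below.

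The plastid ribosome, which translates the organelle's own messengers, was the complex with the most members above 0. Of its 15 measured proteins 14 had a difference above 0, against 45.1% of all probe sets, and the median of the 15 was 1.00. Of the 9 tested 3 were called, as named above, where 2.71% of all probe sets kept were called higher. For 8 of the 15 the arrays of the groups did not overlap, all with cells higher, against 9.15% of all probe sets. rpl32, of the large subunit, lay just outside the threshold: 10.18, 10.13 and 9.37 in cells, against 8.88, 8.68 and 8.98 in whole-embryo nuclei (difference 1.04, SE 0.286, limma adjusted p = 0.0513). Next to it, rps3 differed by 0.91 (SE 0.279, adjusted p = 0.075), rps15 by 1.26 (SE 0.405, adjusted p = 0.0858) and rpl20 by 0.88 (SE 0.361, adjusted p = 0.17). rps15, like rpl22, passed the filter through the cells alone, and with no filter its adjusted p was 0.169. The one member below 0 was rps14, at -0.48, whose gene lies beside psaB and psaA.

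Photosystem genes lay on both sides of 0. Of 20 measured, 11 stood above 0 and 9 below, with a median of 0.12, where 45.1% of all probe sets stood above 0. Limma called 0 of the 11 tested, where 2.71% of all probe sets kept were called higher and 4.05% lower. At an unadjusted p under 0.05 was 1 of the 11, against 23.9%. In photosystem I, psaB, a reaction centre protein, differed by 0.87 (SE 0.383, limma adjusted p = 0.193) while its neighbour psaA, the partner in the same reaction centre, stood at -1.29 and was too dim to be tested. In photosystem II, psbM, a small membrane subunit, read 12.31, 11.98 and 12.04 in cells, against 11.94, 11.82 and 12.72 in whole-embryo nuclei. That is a difference of -0.05 (SE 0.288, adjusted p = 0.94), within the spread of either group. psbA, which encodes the D1 protein replaced in the course of photosynthesis, differed by -0.26 (SE 0.454, adjusted p = 0.774), and rbcL, the large subunit of the carbon-fixing enzyme Rubisco, by 0.27 (SE 0.278, adjusted p = 0.593). rbcL also had one of the narrowest ranges over the 12 arrays, 0.87.

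Of the 6 ATP synthase genes 5 stood above 0, against 45.1% of all probe sets, and atpE alone was tested with the filter. Besides atpE, the dim genes atpH and atpB stood higher in cells with no overlap: atpH, of the membrane ring, read 6.05, 6.35 and 5.96 in cells, against 4.19, 4.22 and 4.22 in whole-embryo nuclei. Below the array median on all 12 arrays, atpH was not tested with the filter, and without it the difference of 1.91 had a limma adjusted p of 0.0181. atpB, the catalytic beta subunit and the neighbour of atpE, read 7.67, 6.50 and 6.50 in cells, against 4.36, 5.31 and 4.94 in whole-embryo nuclei (adjusted p = 0.0625 without the filter). On the opposite side, atpA, the alpha subunit that pairs with beta in the enzyme's head, read 5.45, 4.17 and 4.35 in cells, against 6.28, 5.55 and 5.52 in whole-embryo nuclei. The genes atpF, at 0.21, and atpI, at 0.56, lay between, with overlapping groups.

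Of the NDH complex, which returns electrons to the photosynthetic chain, 5 of 10 genes stood above 0, against 45.1% of all probe sets. Limma called 0 of the 3 tested, where 2.71% of all probe sets kept were called higher and 4.05% lower. At an unadjusted p under 0.05 was 1 of the 3, against 23.9%. ndhC, a membrane subunit, read 10.43, 10.82 and 10.23 in cells, against 11.16, 11.16 and 11.28 in whole-embryo nuclei, with no overlap (difference -0.71, SE 0.254, adjusted p = 0.119). The cytochrome b6f complex, which joins the photosystems, had 2 of 6 genes above 0, against the same 45.1%. Its petA, for cytochrome f, differed by 0.89 (SE 0.301, limma adjusted p = 0.101), while petG, a small subunit at the bottom of the scale, stood at -0.29. In the RNA polymerase, rpoA, for the alpha subunit, read 11.15, 10.81 and 10.55 in cells, against 12.01, 11.16 and 11.77 in whole-embryo nuclei (difference -0.81, SE 0.293, adjusted p = 0.121). Its fellow subunits rpoC2, rpoC1 and rpoB stood at 0.43, 0.26 and -0.45. Among the others, accD, of the enzyme that starts fatty acid synthesis, read 6.33, 7.61 and 6.51 in cells, against 4.70, 5.39 and 4.56 in whole-embryo nuclei, a difference of 1.93 that was not tested with the filter and had an adjusted p of 0.0703 without it. ccsA, of cytochrome c assembly, and matK, a factor of intron splicing, differed by 0.88 and 0.69, and the photosystem I assembly genes ycf3 and ycf4 by 0.59 and 0.69.

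The differences varied along clusters of neighbouring genes. The longest cluster, in which ribosomal protein genes and rpoA follow one another, had 7 of 11 listed genes measured. In its order, rps19 differed by 1.62, rpl22 by 1.77, rps3 by 0.91, rpl16 by 0.38, rpl14 by 1.22 and rpl36 by 1.58, and rpoA at the far end by -0.81. atpB and atpE, which share a transcript, both stood higher in cells with no overlap, at 2.02 and 2.53, while psaA and psaB, which also share one, stood at -1.29 and 0.87.

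**Figure D3:**
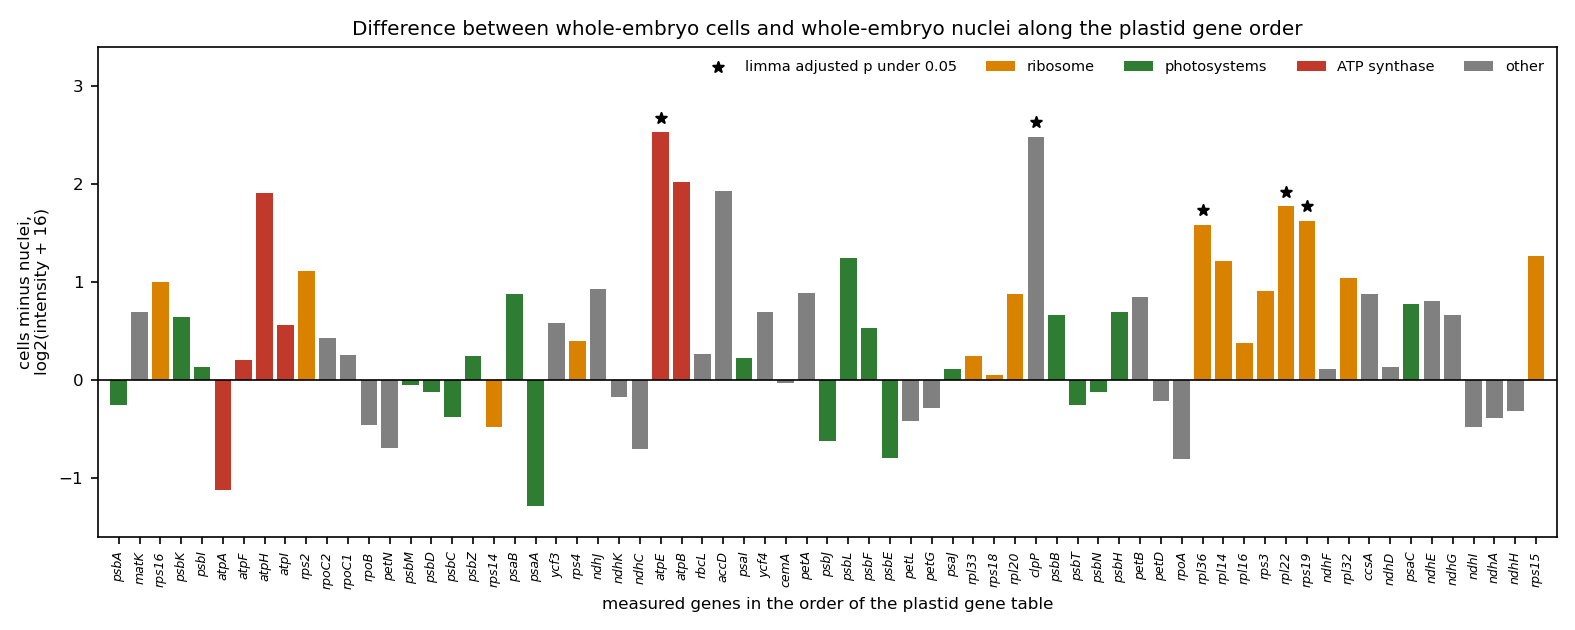
Bars give whole-embryo cells minus whole-embryo nuclei in log2(intensity + 16) for the 69 measured genes in the order of the plastid gene table, coloured by complex, and stars mark the 5 genes past the limma threshold. The run from rpl36 to rps19 is above 0 throughout, with rpoA next to it at -0.81, and photosystem genes lie on both sides of 0.

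The mitochondrion, the other organelle with a genome, had genes mostly on the other side of 0. Of 16 measured mitochondrial genes 2 stood above 0, against 45.1% of all probe sets, with a median of -1.30. Limma called 0 higher and 5 lower of 11 tested (nad1, ccmFC, nad9, nad4L and nad5), against 2.71% higher and 4.05% lower over all probe sets, with 8 at an unadjusted p under 0.05, against 23.9%. Nuclear genes for plastid proteins, listed from textbook knowledge with the earlier results of these data known, had a named probe set for 19 genes, a part of those listed. Named were 9 of 32 ribosomal proteins, 2 of 12 genes of photosystem I, 3 of 13 of photosystem II and 2 of 10 of the Clp protease. The ATP synthase had 2 of 4 and the phage-type polymerases 1 of 3. The Rubisco small subunits, sigma factors and polymerase-associated proteins listed had none. Limma called 1 of the 18 tested higher in cells and 0 lower, beside the same 2.71% and 4.05%, the call being AT2G43030 for a plastid ribosomal protein (2.49-fold, SE 0.292 on the log2 scale, adjusted p = 0.0231). Of 9 nuclear genes for plastid ribosomal proteins 8 stood above 0, where 45.1% of all probe sets did, with a median of 0.53. In the photosystems PSAN differed by 1.10 (SE 0.342, adjusted p = 0.0776) and PSBY by 0.57 (SE 0.284, adjusted p = 0.245), while PSAE-1 stood at -0.07, PSBW at -0.0049 and PSB27 at -0.12. Of the Clp protease CLPP4 stood at 0.23 and AT1G09130 at -0.18.

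Other measures moved between the same groups, and their part in these differences was not tested. The 18 hybridisation control probe sets, added in fixed amount, averaged 11.57, 11.59 and 11.83 in cells, against 12.32, 11.84 and 12.95 in whole-embryo nuclei. Of 7 seed coat markers only BAN, an enzyme of tannin synthesis, has a named probe set; it read 14.03, 13.81 and 12.23 in cells, against 12.65, 12.87 and 12.85 in whole-embryo nuclei, above the array median on every array. Of 7 endosperm markers 2 were named: AGL80 read 7.55, 7.50 and 7.48 in cells, against 7.23, 7.14 and 7.28 in whole-embryo nuclei, and AGL62 read 6.53, 6.31 and 6.50 in cells, against 5.37, 5.69 and 6.58 in whole-embryo nuclei. Markers of the embryo itself were not analysed here.

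The second question was how plastid genes differ between the lineages of the early embryo, the suspensor, which joins the embryo to the mother tissue, and the proembryo, from which nearly the whole later plant grows. Limma called 0 of the 34 members tested higher and 0 lower in suspensor nuclei than in proembryo nuclei, with 2 at an unadjusted p under 0.05, both higher. Over all 12787 probe sets 0.696% were called higher and 1.34% lower, and 16% had an unadjusted p under 0.05. Without the filter 41 of the 69 genes stood above 0, against 54.6% of all probe sets. The groups did not overlap for 6 of the 69 genes, all with the suspensor higher (psbK, psbD, rps14, rpl33, petB and rpl22), where 8.28% of all probe sets stood apart in that direction and 6.91% in the other. A p that misses the threshold does not show equal levels: the standard errors of the 34 differences ranged up to 0.755 for atpE, whose suspensor arrays read 11.81, 8.86 and 7.54.

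Among the genes tested, rpl33 stood highest in suspensor nuclei over proembryo nuclei. A protein of the large ribosomal subunit, it read 7.25, 7.25 and 7.01 in suspensor nuclei, against 6.07, 6.43 and 5.06 in proembryo nuclei (difference 1.31, SE 0.524, n = 3 and 3, limma adjusted p = 0.221). It passed the filter through the suspensor arrays alone. psaI, a small subunit of photosystem I, read 8.15, 6.87 and 7.08 in suspensor nuclei, against 4.88, 6.24 and 7.23 in proembryo nuclei, and the groups overlapped (difference 1.25, SE 0.589, adjusted p = 0.305). psaJ, another small photosystem I subunit and the neighbour of rpl33, differed by 0.92 (SE 0.44, adjusted p = 0.317) and rpoC1 by 1.08 (SE 0.523, adjusted p = 0.322). All 5 photosystem I genes stood above 0, from 0.01 for psaC to 1.25 for psaI, where 54.6% of all probe sets did. psaC lay below the array median on every array and was not tested. Of the 4 tested limma called 0, and 1 had an unadjusted p under 0.05, against 16% of all probe sets kept. The sign of psaB rested on single arrays: it stood at -0.40 without suspensor replicate 1 and at -0.02 without proembryo replicate 2. psaA, psaI and psaJ stayed above 0 in both cases. On the other side were ycf4 at -1.36 (SE 0.676, adjusted p = 0.335), ndhC at -0.97 (SE 0.511, adjusted p = 0.364) and psbJ at -0.66 (SE 0.463, adjusted p = 0.513). Single arrays moved these values: psbJ stood at 0.0671 without suspensor replicate 3, and psaJ at 0.57 without suspensor replicate 1 and 0.54 without proembryo replicate 2. ycf4 stood at -2.15 without suspensor replicate 1, and over all its alternatives it ran up to -0.76.

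Other measures were also read in both lineages, and their part in these values was not tested. The log2 ratio of the 3' to the 5' actin probe sets was 3.86, 3.57 and 3.34 in suspensor nuclei, below all proembryo nuclei, at 4.46, 4.53 and 4.72. The same ratio overlapped between the groups for ubiquitin and GAPDH. For ubiquitin it was 4.51, 5.55 and 5.39 in suspensor nuclei, against 4.53, 4.58 and 4.51 in proembryo nuclei. For GAPDH it was 7.50, 6.79 and 7.08 in suspensor nuclei, against 8.26, 7.92 and 6.04 in proembryo nuclei. The seed coat marker BAN read 12.94, 13.48 and 13.15 in suspensor nuclei, against 12.94, 12.12 and 12.76 in proembryo nuclei. The endosperm marker AGL62 read 6.30, 7.04 and 7.14 in suspensor nuclei, against 5.93, 5.51 and 7.03 in proembryo nuclei, and AGL80 read 7.43, 7.56 and 7.04 in suspensor nuclei, against 7.13, 7.51 and 5.37 in proembryo nuclei. For BAN, AGL62 and AGL80 alike the arrays of the 2 lineages overlapped.

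Single arrays of a lineage stood apart from the others. Suspensor nuclei replicate 1 was the highest of the suspensor arrays for 25 of the 34 members tested, against 31.9% of all probe sets kept, and proembryo nuclei replicate 2 the lowest of the proembryo arrays for 20, against 33.5%. For the 14 genes whose mean over 12 arrays is at least 8, a bound chosen after the values were seen, suspensor replicate 1 was the highest in 14 and proembryo replicate 2 the lowest in 14. Of 4798 probe sets whose means span the same range, suspensor replicate 1 was the highest in 38% and proembryo replicate 2 the lowest in 39.7%. The 14 genes are psbM, rpoA, ndhC, atpE, psbZ, clpP, rpl32, psbJ, psbI, rps19, rps3, rps4, ccsA and psaB.

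rps19 shows the pattern: it read 10.10, 8.08 and 6.19 in suspensor nuclei, against 8.26, 6.35 and 9.01 in proembryo nuclei, and 7.34, 8.33 and 7.64 in whole-embryo nuclei. The spread within each lineage exceeded the difference between them, 0.25 (SE 0.722, limma adjusted p = 0.903), which was -0.74 without suspensor replicate 1 and -0.51 without proembryo replicate 2. clpP read 9.99, 8.81 and 7.66 in suspensor nuclei, against 9.30, 7.17 and 9.39 in proembryo nuclei. rpl32 read 10.18, 7.02 and 7.18 in suspensor nuclei, against 9.09, 7.41 and 9.61 in proembryo nuclei. In each of these genes the suspensor arrays apart from replicate 1 lay below proembryo replicate 1 and replicate 3. The SD between suspensor arrays had a median of 1.27 over the 14 genes, against 0.327 over the 4798 probe sets, and between proembryo arrays of 0.873, against 0.286. In whole-embryo nuclei it was 0.412, against 0.273, so the widest spread was that of suspensor nuclei. Across the 9 arrays of nuclei the 14 genes correlated pairwise with a median of 0.73, and the 20 other members tested, which are dimmer, with a median of 0.11. The same value was not taken over the 4798 probe sets, so it does not show whether 0.73 is particular to plastid genes. These correlations describe 9 arrays that share the same amplification and scaling.

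The hybridisation controls moved with this pattern in part. In suspensor nuclei they averaged 11.41, 13.00 and 13.89, where the median of the 14 genes was 10.04, 8.34 and 7.41. In proembryo nuclei they averaged 12.13, 12.65 and 11.67, and the median of the 14 genes was 8.93, 7.69 and 9.39. In both lineages the array with the lower control level thus had the higher plastid level, in all 3 ranks. In whole-embryo nuclei the controls averaged 12.32, 11.84 and 12.95, with a plastid median of 8.52, 8.67 and 8.66, which do not follow that order. Whether the amount of RNA on the array has a part in the plastid levels was not tested. Of the 13 mitochondrial genes kept, suspensor replicate 1 was likewise the highest of the suspensor arrays for 9, against 31.9% of all probe sets kept. Proembryo replicate 2, the lowest for the 14 plastid genes, was the highest of the proembryo arrays for 8 of the mitochondrial genes, against 38.7%.

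**Figure D4:**
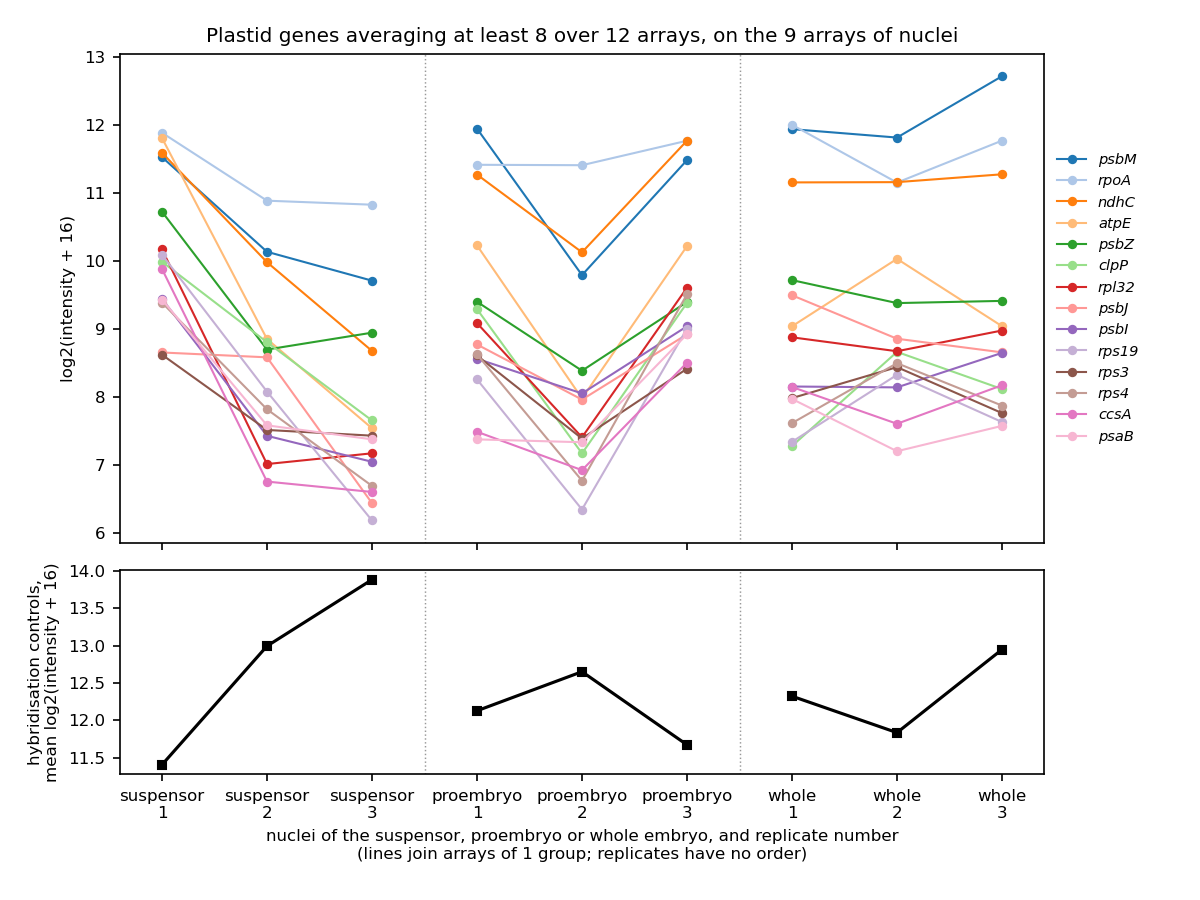
The upper panel gives log2(intensity + 16) of the 14 plastid genes averaging at least 8 over 12 arrays on the 9 arrays of nuclei, and the lower panel the mean of the 18 hybridisation controls on the same arrays. All 14 genes are highest on suspensor replicate 1 among the suspensor arrays and lowest on proembryo replicate 2 among the proembryo arrays.

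Single arrays decided on which side of 0 the members tested lay. Over the 34 members the median, suspensor minus proembryo nuclei, was 0.13. Without proembryo replicate 2 it was -0.0185 over 33 members, as cemA no longer passed the filter. Without suspensor replicate 1 it was -0.29 over 33 members, without rpl33, so the set of genes changed as well. The median over all probe sets was 0.01 with all arrays and 0.02 without suspensor replicate 1. Without that array limma called ndhC (-1.73, SE 0.41, adjusted p = 0.0313) and psbI (-1.31, SE 0.339, adjusted p = 0.0435) lower in suspensor nuclei, 2 of 33 tested, where 2.51% of all probe sets were called lower. psbI, a small photosystem II subunit, read 9.45, 7.43 and 7.05 in suspensor nuclei, against 8.57, 8.06 and 9.04 in proembryo nuclei.

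Both lineages were also set against whole-embryo nuclei, which hold both; these comparisons share arrays with the one above and are not independent of it. Limma called 0 of 34 members in suspensor nuclei, with 3 higher and 3 lower at an unadjusted p under 0.05, where 14.3% of all probe sets had one and 0.594% were called higher and 0.962% lower. Of the 69 genes 6 stood apart higher, against 8.56% of all probe sets, and 3 lower, against 6.92%. Without the filter 38 of the 69 genes stood above 0, against 54.6%. psbM came nearest: it read 11.53, 10.14 and 9.72 in suspensor nuclei, against 11.94, 11.82 and 12.72 in whole-embryo nuclei, without overlap (difference -1.70, SE 0.478, n = 3 and 3, limma adjusted p = 0.0889). It passed in 3 alternatives, with an adjusted p of 0.0474 when only the 6 arrays compared were in the fit, 0.0388 with the replicate number as a block and 0.0176 without suspensor replicate 1, where 0.651%, 0.946% and 1.8% of all probe sets were called lower. Over all its alternatives the adjusted p ran from 0.0176 to 0.282. ndhC differed by -1.11 (SE 0.511, adjusted p = 0.329), and by -1.87 without suspensor replicate 1 (adjusted p = 0.0246). psbJ, a small photosystem II subunit, stood at -1.11 (SE 0.463, adjusted p = 0.272). Higher in suspensor nuclei, without passing, were rps15 at 1.37 (SE 0.465, adjusted p = 0.168), rpl33 at 1.21 (SE 0.524, adjusted p = 0.294) and psaJ at 0.95 (SE 0.44, adjusted p = 0.333), each with no overlap between the groups. Among nuclei rpl33 passed the filter through the suspensor arrays alone, and rps15 lay above the array median in suspensor but not in whole-embryo nuclei. With no filter their limma adjusted p was 0.377 for rpl33 and 0.288 for rps15.

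Proembryo nuclei against whole-embryo nuclei gave 0 calls among 34 members by limma, with 2 at an unadjusted p under 0.05, as it gave 0% over all 12787 probe sets, of which 3.14% had an unadjusted p under 0.05. Of the 69 genes 37 stood above 0, against 50.5% of all probe sets, 4 stood apart higher, against 4.24%, and 3 lower, against 4.1%. With all arrays the largest differences among the members tested were psbM at -1.08 (SE 0.478), psbA at -0.86 (SE 0.538) and psbF, a subunit of cytochrome b559 in photosystem II, at -0.81 (SE 0.391). On the other side were rpoC2 at 0.93 (SE 0.415), rps15 at 0.66 (SE 0.465) and clpP at 0.60 (SE 0.565). The lowest limma adjusted p of the members tested was 0.999954. psbM read 11.95, 9.80 and 11.49 in proembryo nuclei, so that replicate 2 alone lay more than 1 unit below the lowest whole-embryo array, 11.82. Without that replicate psbM stood at -0.44 and clpP at 1.318.

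**Figure D5:**
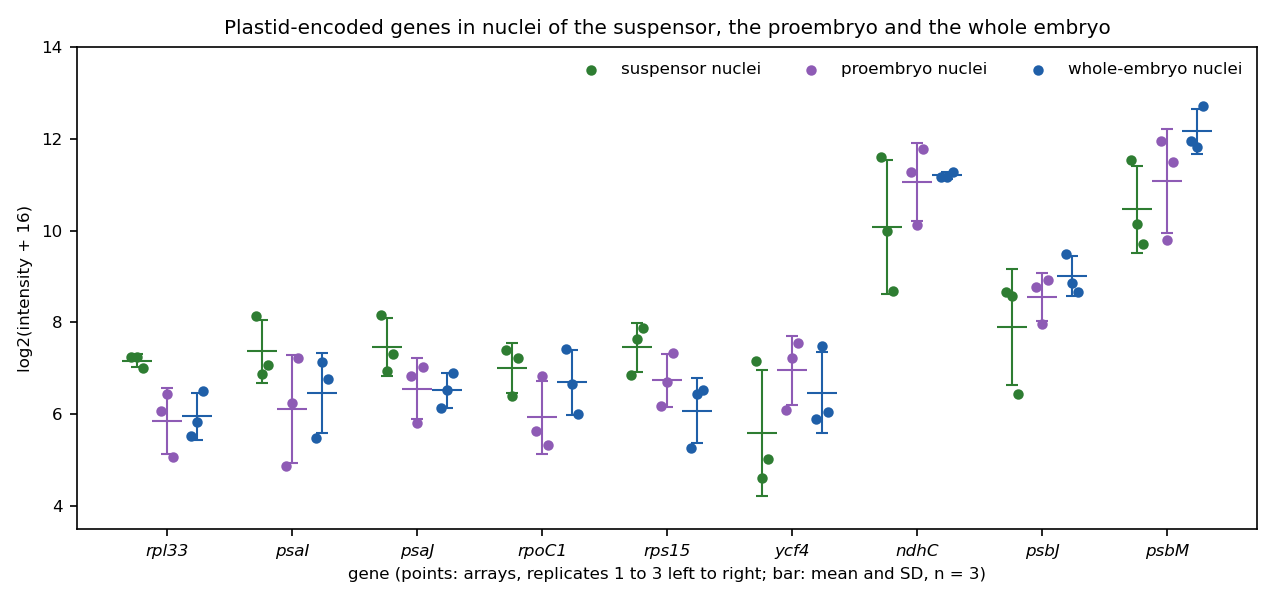
Points are single arrays of suspensor (green), proembryo (purple) and whole-embryo nuclei (blue) on the log2(intensity + 16) scale, with mean and SD of 3 arrays. The genes are those tested with the 3 largest differences in each direction between suspensor nuclei and either other group. Genes too dim to be tested are not drawn. The suspensor points of rpl33, between 7.01 and 7.25, lie above all others of that gene, while those of ndhC and psbJ spread from 8.68 to 11.60 and from 6.44 to 8.66.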

How the data were processed

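The deposited values are linear intensities, 1 per probe set and array, made by the authors with MAS5 and affy 1.32.1, per the submitters' processing notes; how they were combined is not stated there. The mean after trimming 2% from each end was 200.02 on all 12 arrays, so the scaling was kept. Probe sets were named from the platform annotation through gene identifiers in a gene table (TAIR10.1) that served for names and gene order alone: 13436 matched by identifier, 77 by a unique symbol, 503 had several genes and 8730 were unnamed.

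Values were taken as log2(intensity + 16). Leaving aside 64 control probe sets, those above their array's median on 3 or more of the arrays fitted were kept. limma 3.58.1 under R 4.3.3 tested differences (lmFit and trended eBayes), with Benjamini-Hochberg adjustment over all probe sets kept, at 0.05, in a fit of 6 arrays for cells against nuclei and of 9 for nuclei. The procedure was tested on simulated data. Members, gene lists and tests were chosen with earlier results of these data known. Genes were named if past the threshold, among the 3 largest differences in each direction or 3 smallest p of a comparison, highest or lowest of a complex, among the 5 brightest or dimmest, or of the 3 widest ranges; others were chosen after their values were seen. Correlations between arrays ran from 0.793 to 0.953, so no array is a copy. Alternatives were other pseudocounts, no filter, median centring, quantile normalisation, no trend, all 12 arrays or the 6 compared, a replicate block, and each array left out. Python 3.11.15 was used.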

Additional observations from a re-analysis of the deposited data

How the results depend on the processing

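Precision is limited by 3 arrays a group, and dim genes rest on signals near the bottom of the scale. In whole-embryo cells 5 genes were called higher, where 2.71% of all probe sets kept were. With a pseudocount of 1 the count was 3 (2.15% of all probe sets called higher). It lay between 1 and 9 when 1 array was left out (0.485% to 4.29%). Under the other alternatives it lay between 4 and 6 (0.822% to 3.64%). The 0 genes lower in suspensor than in proembryo nuclei became up to 2 when 1 array was left out. That array was suspensor replicate 1, and without it 2.51% of all probe sets were called lower. Against whole-embryo nuclei the 0 lower in suspensor nuclei became 1 with the replicate block (0.946% of all probe sets called lower). With only the 6 arrays compared it also became 1 (0.651%). It lay between 0 and 2 when 1 array was left out, with 2 without suspensor replicate 1 (1.8%). For psbJ, suspensor against proembryo nuclei, the difference ran from -1.04 to 0.0671 when 1 array was left out, turning sign without suspensor replicate 3. The cause of these shifts was not tested, and leaving out an array also lowers the number of arrays. Median centring moved the median over all probe sets to 0.14 in cells against nuclei, where the median over members was 0.40, and to -0.09 in suspensor against proembryo nuclei, where it was 0.03. The median over members, suspensor against whole-embryo nuclei, was -0.02 and ran from -0.42 to 0.25 when 1 array was left out. For proembryo against whole-embryo nuclei it was -0.10 and ran from -0.27 to 0.08. In these fits 33 or 34 members were tested, so the set of genes changed with the array left out. Arrays with the same replicate number did not deviate together: their correlations ran from -0.137 to 0.0985. Arrays with unequal numbers ran from -0.1595 to 0.1593. These values gave no sign that the numbers pair the samples, but deviations from means of 3 arrays cannot show that they do not. With the replicate block the count in cells was 4, atpE, clpP, rpl36 and rps19, where 2.63% of all probe sets were called higher. Averaging probe sets of a gene could not be run, since each member has 1.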
